A study of Mus musculus with 18 samples.

Results

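Nonconfined dendritic cells (DCs) labelled cPLA_2_ knockout (KO) were compared with nonconfined DCs labelled wild-type (WT), which addresses how the genotypes differ before any confinement. The comparison uses the 3 libraries labelled as immature nonconfined cPLA_2_ KO DCs and the 3 labelled as immature nonconfined cPLA_2_ WT DCs, 6 of the 18 libraries in the series, and was chosen by these column labels. The other 12 libraries are confined cells of either genotype and cells given lipopolysaccharide (LPS), with 3 libraries in each group. Bulk polyadenylated RNA was sequenced from bone marrow-derived DCs after 10 days of culture with granulocyte-macrophage colony-stimulating factor, and the deposited table gives a value for 62197 genes in each library. The 6 libraries compared are labelled as untreated and as collected when the culture ended, although the protocol text of all labels mentions LPS. According to the study's methods, the knockout was conditional, made by CRISPR–Cas9 editing of *Pla2g4a* and a cross to *Itgax*-*cre* mice, so that Cre came from the promoter of the CD11c gene. The same methods give donors of 6 to 8 weeks, elsewhere mice of 8 to 14 weeks and of either sex, breeders backcrossed to C57BL/6, and littermate or age-matched controls. They also state that the semiadherent cells were kept, because granulocytes are nonadherent and macrophages adhere strongly. Neither text says which animals or sexes went into which library, which of 2 named library kits was used for which sample, or which part of *Pla2g4a* is removed.

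cPLA_2_, encoded by *Pla2g4a*, is a cytosolic phospholipase that releases arachidonic acid from membrane phospholipids, the first step towards prostaglandins and leukotrienes. Freed fatty acids and sterols also act on transcription, because polyunsaturated fatty acids restrain the processing of SREBP factors, which drive lipid synthesis genes, and oxysterols activate LXR receptors, which drive sterol export. Marrow cultures with this growth factor give rise to DCs, macrophages and granulocytes, and their cells pass from dividing progenitors to nondividing DCs.

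Values are normalized counts, which are reads per gene divided by a factor for library size and are not scaled for gene length. The WT libraries held 34689393 to 45020354 reads on genes (median 39851237) and the KO libraries 36034820 to 45021696 (median 37116045). The biological coefficient of variation between libraries was 0.0471 in WT and 0.0791 in KO cells. Testing required 10 or more normalized counts in 3 or more of the 6 libraries. Tests were made with limma, a linear model per gene with shared variance information, on log2(normalized count + 1). A gene is called higher or lower where the p adjusted over all 15661 genes tested was under 0.05. Counts of genes below refer to the 15173 autosomal genes tested. A figure legend of the study calls each point of this RNA sequencing a biological replicate. The labels do not state that replicates are separate cultures or animals, so the p-values measure the spread between these samples.

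*Pla2g4a* (GSMG0002495, chromosome 1, 149705372 to 149837041 in GRCm39) held 697, 686 and 770 normalized counts in WT replicates 1, 2 and 3 and 548, 542 and 533 in KO replicates 1, 2 and 3. The 3 KO libraries lay close together and below each WT library, and none was near 0. The KO mean was 75.3% of the WT mean, a log2 fold change of -0.41 (standard error 0.08, limma adjusted p = 0.00217). Whether the remaining transcript lacks an exon cannot be read from a value per gene. In confined cells the log2 fold change was -0.60, and the interaction of genotype with confinement was not past the threshold (adjusted p = 0.114). The libraries labelled LPS did not show this order, with 1005, 969 and 967 normalized counts in those labelled WT and 1065, 1032 and 1028 in those labelled KO. Y-linked reads in the LPS libraries did not follow the genotype labels, as given below. No difference between genotypes under LPS is therefore read from these values.

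The sex chromosomes separated the same libraries. *Ddx3y*, a Y-linked RNA helicase gene, held 3.05, 0 and 1.97 normalized counts in the WT and 949, 981 and 874 in the KO libraries. *Xist*, the noncoding RNA of the inactive X chromosome, held 27953, 33681 and 30681 in the WT and 12153, 19081 and 14328 in the KO libraries. *Ddx3y* was thus near 0 in all 3 WT libraries, whereas each KO library held it together with *Xist* at a lower level than any WT library. *Kdm5d*, *Eif2s3y* and *Uty*, also Y-linked, showed the pattern of *Ddx3y*, but *Erdr1*, which the table places on Y too, was present in every library, at 3200, 2687 and 2964 in the WT and 6658, 5625 and 6571 in the KO libraries. Genotype and the sex of the donors cannot be told apart in these 6 libraries. The counts are restricted to autosomes, which leaves out sex-linked genes but does not separate genotype from sex for the autosomal genes. In the libraries labelled LPS, *Ddx3y* held 1271, 0 and 662 normalized counts in WT replicates 1, 2 and 3 and 2.12, 1476 and 783 in KO replicates 1, 2 and 3. There the Y-linked reads did not follow the genotype labels, and these 6 libraries were not used in the tests.

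Of the 15173 autosomal genes, 2072 were called (13.7%), with 1114 higher (7.34%) and 958 lower (6.31%) in KO cells. The differences were mostly small, and 204 genes (1.34%) were called with a change of over 1 on the log2 scale, 153 of them higher and 51 lower. The 153 include genes such as *Acot1* and *Gm3255*, which passed the filter only through the KO libraries. With a filter of 100 normalized counts, 50 genes were higher and 12 lower by over 1. The genotypes did not overlap for 4638 genes (30.6%), and the median over all 15173 genes was 0.00 on the log2 scale. Counts of called genes in the lists below stand against the 13.7% called over all genes. Of 27 gene lists, those of thioesterases and of lymphoid and plasmacytoid DC genes are given without a median, for reasons stated below. Among the others, those of eosinophils and of neutrophil secondary granules had the highest medians (1.26 and 0.63). Those of cholesterol synthesis, mitosis and DNA replication had the lowest (-0.28, -0.27 and -0.23). In the 6 lists with a count of 0 in a direction, limma at an unadjusted p under 0.05, edgeR and DESeq2 also gave 0 in that direction. The direction with more calls depended on the scaling, since the same total per library gave 929 higher and 1256 lower genes. It also depended on KO replicate 2, without which 1657 genes were higher and 1726 lower. Without KO replicate 3, 656 were higher and 474 lower, and without WT replicates 1, 2 and 3 in turn 523, 482 and 494 were lower, with 701 higher in the absence of WT replicate 2. A fit of all 18 libraries, which shares its variance with the confined and LPS libraries, gave 834 higher and 727 lower genes. KO replicates 1 and 3 differed from the other 4 libraries in a trend with transcript length.

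The canonical transcript's length in the GENCODE annotation was known for 9821 autosomal genes whose mean was 100 normalized counts or more. For the 482 genes with transcripts of up to 1000 bases, the median deviation from the WT mean was 0.16, -0.02 and 0.09 on the log2 scale in KO replicates 1, 2 and 3. For the 1560 genes above 6000 bases it was -0.16, -0.01 and -0.10, respectively. KO replicates 1 and 3 thus ran from high to low with length, while KO replicate 2 and the WT libraries stayed flat. Among the shortest transcripts 65 genes were higher and 15 lower in KO cells, and among the longest 70 were higher and 287 lower. Across genes, which are not independent replicates, Spearman's correlation of length with the log2 fold change was -0.30. The groups with the largest shifts are therefore also given with the length trend of each library removed and with KO replicate 2 as the only KO library, settings chosen after the data were seen. In the latter setting the lone KO library is assumed to vary like the WT libraries, and 622 genes were higher and 499 lower.

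**Figure D1:**
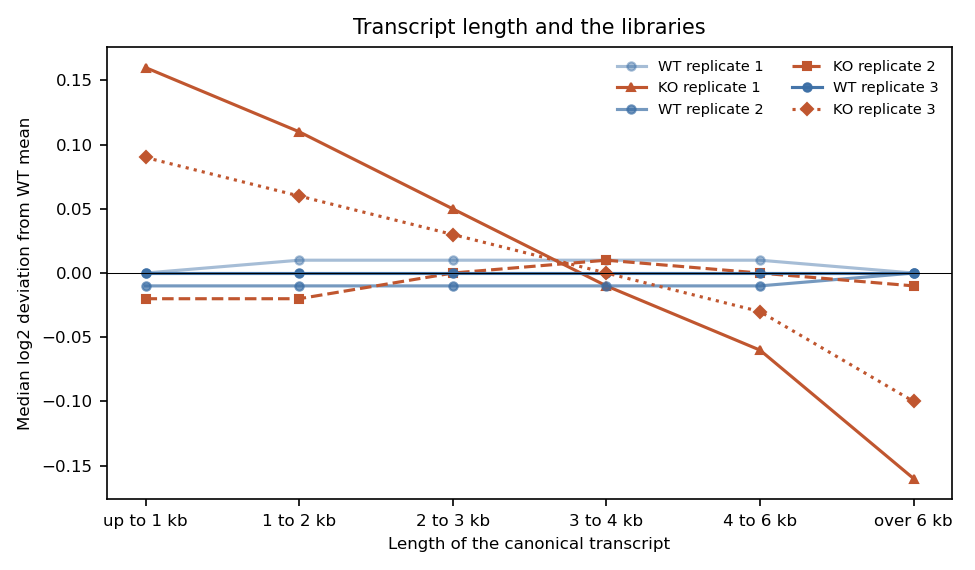
Median deviation from the WT mean, on the log2 scale, against the length of the canonical transcript in 6 classes, with a line for each of the 6 nonconfined libraries. KO replicate 1 runs from 0.16 to -0.16 and KO replicate 3 from 0.09 to -0.10, while KO replicate 2 and the WT libraries stay near 0.

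Genes expressed by eosinophils were higher in KO cells with a single exception. *Prg2*, which encodes the major basic protein of eosinophil granules, held 17162, 17446 and 17221 normalized counts in the WT and 41243, 38113 and 39926 in the KO libraries. *Epx*, the eosinophil peroxidase gene, held 7310, 6821 and 6885 in the WT and 17776, 17644 and 17517 in the KO libraries. For both genes the lowest KO library held more than 2 times the counts of the highest WT library. *Prg2* rose by 1.20 on the log2 scale (standard error 0.04, limma adjusted p = 9.86e-12) and *Epx* by 1.33 (standard error 0.04, adjusted p = 4.39e-12). *Alox15*, which encodes a lipoxygenase that oxidizes arachidonic acid and is abundant in eosinophils, held 968, 912 and 954 in the WT and 2354, 2386 and 2328 in the KO libraries. *Ccr3*, the eotaxin receptor gene, held 82.3, 83.6 and 90.4 in the WT and 246, 220 and 221 in the KO libraries. All KO libraries exceeded all WT libraries for these genes too. *Siglecf*, a surface lectin of eosinophils, moved the other way, with 1426, 1346 and 1435 in the WT and 931, 990 and 907 in the KO libraries (log2 fold change -0.57, adjusted p = 1.46e-05).

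Of the 11 eosinophil genes listed, 8 autosomal genes were tested, of which 7 were higher and 1 was lower, with a median log2 fold change of 1.26 against 0.00 for all genes. The genotypes did not overlap for any of the 8, against 30.6% of all genes. *Gata1* is X-linked, *Ear6* is not in the table, and *Ear2* shares an entry with *Ear3* and *Ear12*. The summed level of the list was 29877, 29553 and 29474 normalized counts in the WT and 71432, 67115 and 68888 in the KO libraries, and *Prg2* held the most. The sum was 2.33 times as high in KO cells. Reads of the ribonuclease genes *Ear1* and *Ear2 // Ear3 // Ear12* may be shared between near-identical copies, so their increases of 1.61 and 1.38 on the log2 scale are less certain. With the length trend removed, and with KO replicate 2 alone, 7 genes were higher and 1 lower in each setting. In bulk RNA, a different number of cells of a type and a different amount of RNA per cell cannot be told apart. *Prg2* also differed among the libraries labelled LPS, with 24790, 14795 and 19549 in WT and 14646, 24643 and 19714 in KO replicates 1, 2 and 3. In both labelled genotypes the library with *Ddx3y* near 0 was the lowest for *Prg2*, and the one with the most *Ddx3y* was the highest. The part of sex or donor in the difference between nonconfined genotypes was not tested.

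All 18 listed genes of mature neutrophils were higher in KO cells. *Ltf*, which encodes the iron-binding granule protein lactoferrin, held 44268, 44363 and 43998 normalized counts in the WT and 86754, 82641 and 85335 in the KO libraries. *Mmp9*, a gelatinase stored in neutrophil granules, held 936, 884 and 918 in the WT and 3618, 3700 and 3896 in the KO libraries. *Ly6g*, the surface marker of mouse neutrophils, held 488, 557 and 590 in the WT and 1208, 1055 and 1040 in the KO libraries. None of these 3 genes showed overlap between genotypes. *Mmp9* had a log2 fold change of 2.03 (standard error 0.06, limma adjusted p = 1.34e-12), *Ltf* of 0.94 (standard error 0.04, adjusted p = 7.50e-11) and *Ly6g* of 1.01 (standard error 0.09, adjusted p = 6.08e-07). All 18 genes of secondary granules and mature neutrophils were tested and higher, with a median of 0.63 and a range of 0.20 to 2.03. Their sum was 296970, 301455 and 300183 in the WT and 462782, 420269 and 447872 in the KO libraries, and *S100a9*, which encodes a calcium-binding alarmin, held the most. The median transcript of these genes has 1525 bases, shorter than the 3392 of all genes with a length. With the length trend removed 17 of 17 were higher, with a median of 0.52, and with KO replicate 2 alone 18 of 18, with a median of 0.54. Over the 6 libraries, 10 of the 18 had a fold of 1.5 and an unadjusted p under 0.05. Among the libraries labelled LPS, *Ltf* held 52409, 34871 and 43317 in WT and 34306, 51002 and 43937 in KO replicates 1, 2 and 3, and so followed *Ddx3y*, as did *Mmp9*, and the part of sex or donor was not tested.

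Of 15 primary granule and progenitor genes tested, 5 were higher and 2 lower, with a median of 0.15. In the fit of 18 libraries 3 were higher and none lower. *Elane*, the neutrophil elastase gene, held 1026, 874 and 1002 normalized counts in the WT and 869, 809 and 865 in the KO libraries, and this difference was not called. *Prtn3*, which encodes a related serine protease, held 1478, 1406 and 1321 in the WT and 1214, 1056 and 1246 in the KO libraries, and was lower by -0.26 (limma adjusted p = 0.0244), a call that was lost without WT replicate 1 (-0.22) or 2 (-0.26). *Cd34*, a marker of progenitors, held 1696, 1589 and 1602 in the WT and 1294, 1326 and 1314 in the KO libraries (-0.31, adjusted p = 0.00174). *Gstm1*, a glutathione transferase gene, was higher by 0.60 (adjusted p = 7.84e-07). *Mpo*, the myeloperoxidase gene, held 2451, 2274 and 2334 in the WT and 2749, 2832 and 2824 in the KO libraries (0.25, adjusted p = 0.00357), and *Ctsg*, the cathepsin G gene, was higher by 0.32 (adjusted p = 0.00727). The genotypes overlapped for none of these 6 genes, although the highest KO library was just below the lowest WT library for *Elane*. The list's sum was 29663, 29484 and 29384 in the WT and 37608, 34625 and 35118 in the KO libraries, and *Srgn*, a proteoglycan gene of many blood cells, held the most and was higher by 0.45 (adjusted p = 1.27e-05). The part of granulocytes in other differences was not tested.

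Of 15 mast cell and basophil genes tested, 10 were higher and none lower, with a median of 0.53. This was 66.7% of the list, against 13.7% of all genes. *Mcpt8*, a basophil protease gene, held 1687, 1809 and 1735 normalized counts in the WT and 3155, 2867 and 2754 in the KO libraries, and *Cpa3*, the mast cell carboxypeptidase gene, held 3187, 3380 and 3337 and then 4957, 4731 and 4847. The groups were apart for both genes, with log2 fold changes of 0.74 (standard error 0.06, limma adjusted p = 3.21e-07) and 0.55 (standard error 0.05, adjusted p = 7.73e-07). The list's sum was 11400, 11379 and 11517 in the WT and 16679, 16382 and 16320 in the KO libraries, with *Cpa3* as the most abundant. The number of genes called higher depended on WT replicate 2, without which it was 5, and with KO replicate 2 alone it was 7. *Il4*, a cytokine gene of basophils, was low in all libraries, at 31.3, 47.5 and 42.7 in the KO libraries and lower in each WT library (1.49 on the log2 scale, adjusted p = 0.0161), and its call was lost without WT replicate 2 (1.04) or KO replicate 3 (1.44).

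Among macrophage genes, 8 of 20 tested were higher and 1 was lower, with a median of 0.17. In the fit of 18 libraries 5 were higher, and none was lower when KO replicate 3 or any WT library was left out. *Marco*, which encodes a scavenger receptor, held 144, 153 and 170 normalized counts in the WT and 705, 686 and 776 in the KO libraries. *Mrc1*, the mannose receptor gene, held 3723, 3932 and 3977 in the WT and 5847, 6418 and 6152 in the KO libraries. Neither gene overlapped between genotypes, and their log2 fold changes were 2.21 (standard error 0.10, limma adjusted p = 2.87e-10) and 0.66 (standard error 0.05, adjusted p = 1.48e-07). The complement genes *C1qa* and *C1qb* were higher by 0.79 and 0.51, and *Mmp12*, a macrophage elastase gene, was lower by -0.13. *Adgre1*, which encodes the macrophage marker F4/80, held 6682, 6690 and 6823 in the WT and 6294, 7615 and 7041 in the KO libraries and was not called. *Cd163*, a marker of tissue macrophages, was at 0 to 1.97 in the 6 libraries. The list's sum was 477734, 484192 and 484788 in the WT and 535079, 509923 and 520099 in the KO libraries, and *Lyz2*, the lysozyme gene of myeloid cells, held the most.

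Of 18 lymphoid and plasmacytoid DC genes 9 were tested, and *Ncr1*, *Klrb1c* and *Ms4a1* were among those too low to test. *Cd3d*, a T cell receptor component, held 124, 169 and 129 normalized counts in the WT and 174, 145 and 148 in the KO libraries and was not called, and *Gzmb*, a granzyme gene, held 47.2, 55.4 and 67.8 and then 145, 114 and 121 (limma adjusted p = 6.31e-04). *Jchain*, which encodes the joining chain of polymeric immunoglobulin, held 22.9, 29.0 and 31.4 normalized counts in the WT and 269, 197 and 181 in the KO libraries. *Siglech*, a marker of plasmacytoid DCs, held 4.57, 3.41 and 15.7 in the WT and 24.3, 14.0 and 33.0 in the KO libraries, with overlap between genotypes. *Siglech* passed the filter through the KO libraries and a single WT library, so its test is not used and no count or median is given for the list. *Jchain* was apart by a wide margin (log2 fold change 2.90, standard error 0.20, limma adjusted p = 6.52e-08). The list's sum was 11216, 11305 and 10952 in the WT and 12526, 10788 and 12262 in the KO libraries, nearly all of it from *Bst2*, an interferon-induced gene of many cell types. Erythroid, megakaryocyte and stromal genes had 4 of 7 tested higher and none lower, with a median of 0.23, and 2 were higher without WT replicate 1 or in the fit of 18 libraries. Their sum was 3121, 2955 and 3093 in the WT and 3907, 3882 and 3847 in the KO libraries, and *Pecam1*, an adhesion gene shared by leukocytes and endothelium, held the most. *Hba-a1*, a globin gene that marks erythroid cells, was at 0 to 12.5. *Itga2b*, an integrin gene of megakaryocytes that is also found on progenitors, was higher by 0.65 (limma adjusted p = 1.72e-05). *Pf4*, another marker of megakaryocytes, held 369, 378 and 326 in the WT and 330, 344 and 346 in the KO libraries, with overlap between genotypes.

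Markers of the dendritic cell label were looked up in each library. Their presence does not show that other cells were absent, and *Ltf*, *Prg2* and *Lyz2*, described above, were present in the same libraries. *Itgax*, which encodes CD11c and whose promoter drives Cre, held 6289, 6386 and 6167 normalized counts in the WT and 4449, 5879 and 5198 in the KO libraries. *Flt3*, the receptor gene of DC progenitors, held 128, 113 and 116 in the WT and 132, 166 and 124 in the KO libraries. *Zbtb46*, a transcription factor gene of conventional DCs, held 709, 719 and 786 in the WT and 798, 909 and 895 in the KO libraries. These markers were present in every library, *Itgax* was lower in each KO library, and neither *Flt3* (limma adjusted p = 0.372) nor *Zbtb46* (adjusted p = 0.0567) was called. The log2 fold change of *Itgax* was -0.29 (standard error 0.07, adjusted p = 0.0136), and its value moved with the library, KO replicate 1 being lowest and KO replicate 2 highest of the 3. It was -0.18 without KO replicate 1, and with KO replicate 2 alone it was -0.10 and not called. The call was also lost without WT replicate 1 (-0.29), WT replicate 2 (-0.28) or KO replicate 3 (-0.30). *Xcr1*, a marker of cross-presenting DCs, was too low to test at 0 to 7.76 in the 6 libraries.

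Of the 5 dendritic cell markers called higher, 4 serve antigen presentation by MHC class II. *H2-Ab1*, the gene of an MHC class II beta chain, held 86934, 81989 and 82973 normalized counts in the WT and 113669, 105060 and 115984 in the KO libraries. *Cd74*, which encodes the invariant chain, held 252117, 232219 and 237341 in the WT and 284485, 266470 and 271538 in the KO libraries. No KO library fell to the level of a WT library. *H2-Ab1*, *H2-Eb1* and *H2-Aa* rose by 0.41, 0.43 and 0.34 on the log2 scale and *Cd74* by 0.19, with limma adjusted p-values of 1.22e-05, 8.20e-06, 1.82e-05 and 0.00960. With a library left out, only *Cd74* of these 4 lost its call, without WT replicate 2 (0.16), WT replicate 3 (0.18) or KO replicate 3 (0.20). None of the dendritic cell markers was higher by a fold of 1.5. *Ciita*, the master regulator of these genes, held 8962, 8434 and 8747 in the WT and 8091, 10235 and 9079 in the KO libraries and was not called. *Ccr2*, a chemokine receptor gene of monocytes and their descendants, held 2012, 2060 and 2167 in the WT and 955, 1204 and 977 in the KO libraries. It was lower in all 3 KO libraries, with a mean of 50.3% of the WT mean (adjusted p = 2.46e-07). Of 19 dendritic cell markers tested, 5 were higher and 2 lower, with a median of 0.15, and with KO replicate 2 alone 9 were higher and 1 lower, as 1 was without WT replicate 1 or 2 or KO replicate 3. In the libraries labelled LPS, *Ccr2* held 242, 759 and 484 in WT and 720, 277 and 454 in KO replicates 1, 2 and 3, highest where *Ddx3y* was near 0, and *H2-Ab1* was lowest there. The summed level was 821767, 788838 and 798086 in the WT and 958372, 902554 and 940458 in the KO libraries.

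Lineage transcription factors moved in both directions, with 7 of 25 higher, 4 lower and a median of 0.07. Those called were 44.0% of the list, against 13.7% of all genes. The number lower fell to 1 without WT replicate 1, KO replicate 1 or KO replicate 3, to 2 without WT replicate 2 or 3, and to 0 with KO replicate 2 alone, where 4 were higher. In the fit of 18 libraries 4 were higher and 2 lower. *Irf4*, a factor of type 2 conventional and monocyte-derived DCs, held 3754, 3631 and 3590 normalized counts in the WT and 2603, 3243 and 2822 in the KO libraries. *Cebpe*, required for neutrophil secondary granules, held 1818, 1816 and 1683 in the WT and 2457, 2150 and 2314 in the KO libraries. *Irf4* was thus lower (-0.35, limma adjusted p = 0.00228) and *Cebpe* (0.38, adjusted p = 5.79e-04) higher in each KO library. *Maf* and *Cebpb* were higher by 0.45 and 0.40, and *Tcf4*, *Runx3* and *Stat5a* lower by -0.38, -0.36 and -0.18. With KO replicate 2 alone *Irf4* was at -0.17, *Cebpb* at 0.18, *Tcf4* at -0.25, *Runx3* at -0.09 and *Stat5a* at -0.17, and none of these was called. *Spi1*, the most abundant of the list and a factor of all myeloid cells, was not called (0.07, adjusted p = 0.371).

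Genes of mature and migratory DCs were divided, with 5 of 27 tested higher, 5 lower and a median of 0.04. Without WT replicate 2 or KO replicate 3, 2 were higher and 3 lower, without WT replicate 3 there were 3 and 3, and without WT replicate 1 there were 3 lower. *Ccr4*, a receptor gene for the chemokines CCL17 and CCL22, held 469, 467 and 426 normalized counts in the WT and 127, 250 and 178 in the KO libraries. *Cd86*, a costimulatory gene, held 3097, 3193 and 3163 in the WT and 4027, 4172 and 3909 in the KO libraries. *Ccl17*, a chemokine gene of mature DCs, held 18080, 17903 and 17654 in the WT and 14556, 12795 and 13655 in the KO libraries. Each of these genes separated the genotypes, with *Ccr4* and *Ccl17* lower (-1.34 and -0.39) and *Cd86* higher (0.36). Of 26 genes of chemokines and their receptors, 6 were higher and 5 lower, with a median of 0.08, and 3 were lower when KO replicate 3 or any WT library was left out. *Ccl6* held the most counts and was higher by 0.36. *Cxcr2*, the neutrophil receptor for CXC chemokines, held 375, 379 and 404 in the WT and 726, 724 and 756 in the KO libraries (0.93, limma adjusted p = 6.96e-07).

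**Figure D2:**
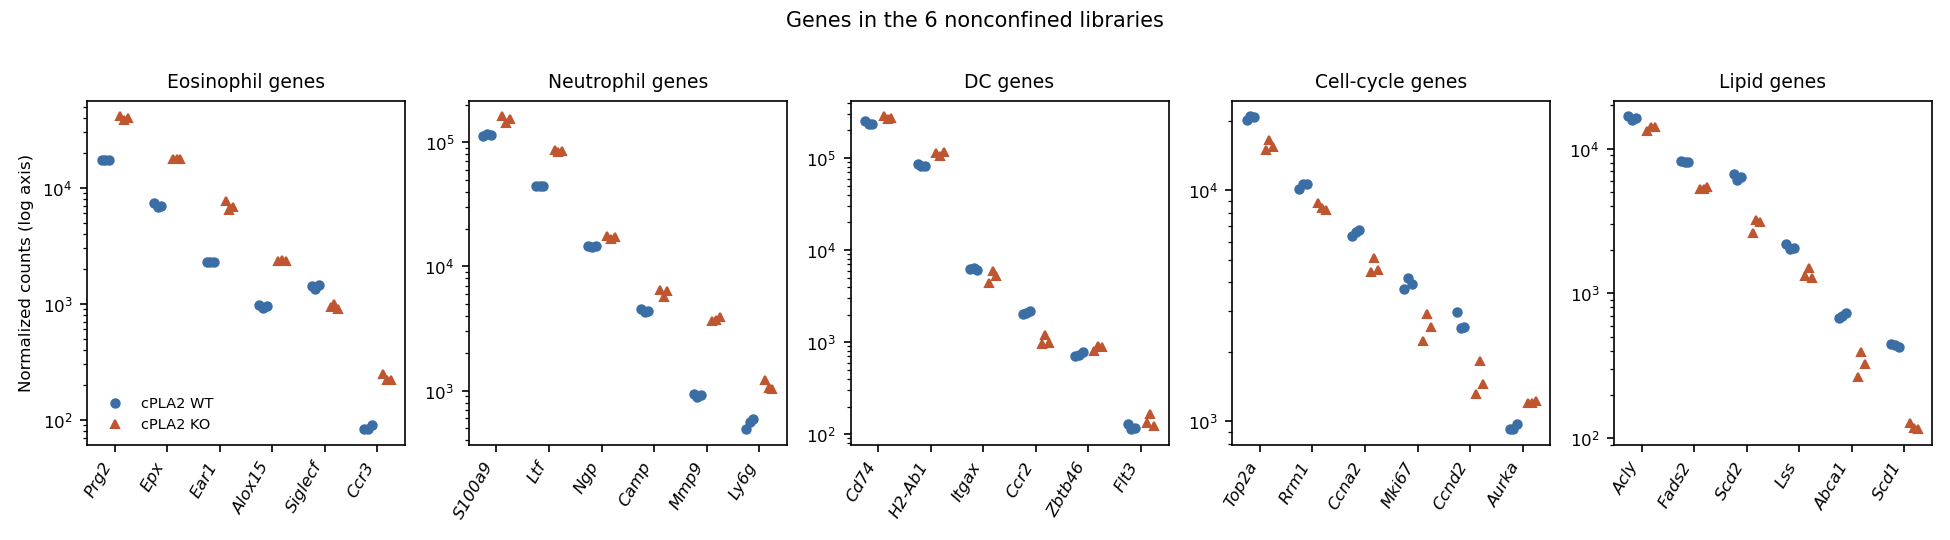
Normalized counts (log axis, not scaled for gene length) of eosinophil, neutrophil, dendritic cell, cell-cycle and lipid genes, with a point for each of the 6 nonconfined libraries (circles, WT; triangles, KO). The points of the 2 genotypes lie apart for *Prg2*, *Ltf*, *Ccr2*, *Mki67* and *Scd1*, and overlap for *Flt3*.

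Of 39 mitosis and G2/M genes tested, 29 were lower in KO cells and 1 was higher, with a median of -0.27. *Mki67*, a marker of proliferating cells, held 3757, 4189 and 3937 normalized counts in the WT and 2237, 2927 and 2555 in the KO libraries. *Top2a*, the topoisomerase gene active in S phase and mitosis, held 20099, 20902 and 20835 in the WT and 14917, 16433 and 15439 in the KO libraries. *Ccna2*, the cyclin A2 gene, held 6332, 6607 and 6755 in the WT and 4450, 5111 and 4516 in the KO libraries. In all 3 genes the highest KO library stayed below the lowest WT library. The log2 fold changes were -0.63 for *Mki67* (standard error 0.08, limma adjusted p = 3.37e-05), -0.40 for *Top2a* (standard error 0.04, adjusted p = 1.16e-05) and -0.49 for *Ccna2* (standard error 0.05, adjusted p = 1.53e-05). The genotypes did not overlap for 32 of the 39, against 30.6% of all genes. The gene called higher was *Aurka*, which encodes Aurora A kinase, with 923, 923 and 970 in the WT and 1196, 1198 and 1228 in the KO libraries (0.36, adjusted p = 9.64e-04). The list's median transcript length of 3125 bases is near that of all genes. With the length trend removed 36 were lower and 1 higher, and with KO replicate 2 alone 30 and 1. In the fit of 18 libraries 19 were lower, and over the 6 libraries 2 were lower by a fold of 1.5. *Top2a* held 7979, 10253 and 9204 in WT and 10144, 7467 and 9004 in KO replicates 1, 2 and 3 labelled LPS, highest where *Ddx3y* was near 0, an order that *Mki67* did not show, and the part of sex or donor was not tested.

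Of 40 genes of DNA replication and the G1/S transition tested, 21 were lower and none higher, and 39 had a value below 0, with a median of -0.23. *Rrm1*, which encodes a subunit of ribonucleotide reductase, held 10134, 10624 and 10598 normalized counts in the WT and 8839, 8408 and 8202 in the KO libraries. *Cdc6*, a licensing factor gene, held 1030, 1009 and 966 in the WT and 746, 767 and 749 in the KO libraries. The groups were apart for both, and the log2 fold changes were -0.30 (standard error 0.04, limma adjusted p = 2.48e-04) and -0.41 (standard error 0.07, adjusted p = 6.18e-04). The number of genes called lower was 24 with the length trend removed and 14 with KO replicate 2 alone, and it fell to 13 without WT replicate 2 and to 14 without WT replicate 1. In the fit of 18 libraries it was 8, with *Cdc6* not among them, and over the 6 libraries none was lower by a fold of 1.5. The summed level of the G1/S list was 95794, 93780 and 94923 in the WT and 83214, 81822 and 81307 in the KO libraries, and that of the G2/M list 127362, 131230 and 130408 and then 105073, 104862 and 104505.

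Regulators of the cycle were divided, with 6 of 30 higher, 6 lower and a median of -0.02, and 3 were higher without KO replicate 3 or in the fit of 18 libraries. *Ccnd2*, the cyclin D2 gene, held 2979, 2543 and 2571 normalized counts in the WT and 1308, 1824 and 1456 in the KO libraries. *Mxd1*, which encodes an antagonist of MYC, held 7947, 7675 and 7864 in the WT and 10371, 10469 and 10110 in the KO libraries. *Myc* itself held 1797, 1624 and 1728 in the WT and 1437, 1360 and 1444 in the KO libraries. *Ccnd2* and *Myc* were lower in each KO library (-0.83, limma adjusted p = 1.72e-05, and -0.28, adjusted p = 0.00529), and *Mxd1* was higher (0.40, adjusted p = 7.28e-06). The CDK inhibitor genes *Cdkn1c* and *Cdkn2a* were higher by 1.05 and 0.93 at low counts. Their calls were lost without KO replicate 3 (1.06 and 0.89), that of *Cdkn1c* also without WT replicate 1 (0.94) and that of *Cdkn2a* without WT replicate 2 (0.86) or 3 (0.73). *Cdkn1a*, the most abundant of the list, was not called (-0.10, adjusted p = 0.106).

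Promoters of the mitosis list were searched because 38 of its 39 genes had a value below 0. RefSeq windows (build GRCm38.p6, whereas the files use GRCm39) of 250 bases before to 50 after the gene start were found for 33 of the 39 genes tested. The letters TTTGAA, those of the cell cycle genes homology region, occurred on either strand in 26 of the 33 (78.8%) and in 17.9% of all 32851 windows. Over the autosomal genes tested with a window the share was 14.6%, and for the G1/S list it was 18.2%, from 33 of 40 genes. The 250 bases before the start are shown for the 2 genes with the largest decreases among those lower in KO cells whose bases hold these letters and for which a window was matched, with the letters in capitals: *Mki67* (chr7:135716380-135716629, minus strand) and *Ect2* (chr3:27153855-27154104, minus strand), a gene needed to divide the cytoplasm. A match describes the sequence and is not a bound site.
Mki67: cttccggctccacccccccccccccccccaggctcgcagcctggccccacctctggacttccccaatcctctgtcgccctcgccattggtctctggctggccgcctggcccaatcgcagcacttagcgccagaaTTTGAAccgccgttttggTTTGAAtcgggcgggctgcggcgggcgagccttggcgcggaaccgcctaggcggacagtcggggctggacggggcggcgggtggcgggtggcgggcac
Ect2: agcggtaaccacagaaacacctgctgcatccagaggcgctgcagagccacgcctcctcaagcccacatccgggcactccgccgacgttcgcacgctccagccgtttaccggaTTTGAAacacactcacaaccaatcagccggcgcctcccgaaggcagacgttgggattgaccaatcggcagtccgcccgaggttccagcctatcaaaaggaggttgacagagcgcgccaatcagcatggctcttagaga

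*Scd1*, a stearoyl-CoA desaturase gene, held 447, 442 and 429 normalized counts in the WT and 128, 117 and 115 in the KO libraries. *Scd2*, its more abundant relative in these cells by normalized counts, held 6670, 6041 and 6363 in the WT and 2611, 3196 and 3107 in the KO libraries. *Fads2*, the desaturase gene at the start of polyunsaturated fatty acid synthesis, held 8253, 8059 and 8084 in the WT and 5244, 5296 and 5432 in the KO libraries. For these 3 genes the highest KO library lay well below the lowest WT library. The log2 fold changes were -1.86 for *Scd1* (standard error 0.11, limma adjusted p = 7.02e-09), -1.10 for *Scd2* (standard error 0.07, adjusted p = 9.95e-09) and -0.61 for *Fads2* (standard error 0.04, adjusted p = 6.04e-08). Of 22 genes of fatty acid synthesis and desaturation tested, 9 were lower and 1 higher, with a median of -0.12. *Elovl6*, an elongase gene, and *Acly*, which supplies cytosolic acetyl-CoA and held the most counts, were lower by -0.46 and -0.24, and *Acsl5*, which activates fatty acids, was higher by 0.16. With the length trend removed 11 were lower and 1 higher, and with KO replicate 2 alone 9 were lower and none higher, as none was without WT replicate 2 or 3 or KO replicate 3. *Scd1* and *Scd2* also varied among the libraries labelled LPS, where *Scd2* held 3692, 6998 and 4819 in WT and 6597, 3291 and 4751 in KO replicates 1, 2 and 3, lowest in the libraries with the most *Ddx3y*.

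Of 23 genes of cholesterol synthesis and uptake, 18 were lower and none higher, with a median of -0.28. This was 78.3% of the list, against 13.7% of all genes. *Lss*, the lanosterol synthase gene, held 2188, 2023 and 2072 normalized counts in the WT and 1317, 1509 and 1286 in the KO libraries. *Acat2*, which makes the acetoacetyl-CoA that enters the pathway, held 1105, 1191 and 1140 in the WT and 728, 789 and 789 in the KO libraries. *Dhcr7*, the gene of a late reductase, held 960, 912 and 1063 in the WT and 657, 724 and 730 in the KO libraries. All KO libraries were below all WT libraries, and the log2 fold changes were -0.61 (standard error 0.07, limma adjusted p = 1.04e-05), -0.57 (standard error 0.07, adjusted p = 2.63e-05) and -0.47 (standard error 0.08, adjusted p = 6.25e-04). *Srebf2*, which encodes the factor that drives the pathway, held 25048, 23370 and 24218 in the WT and 23959, 24723 and 24188 in the KO libraries. It had the most counts of the list, its genotypes overlapped and it was not called (0.01, adjusted p = 0.955). With the length trend removed 19 genes were lower, with KO replicate 2 alone 13, and none was higher in either setting. Over the 6 libraries, a single gene was lower by a fold of 1.5. Among the libraries labelled LPS, *Lss* held 1738, 1844 and 1642 in WT and 1680, 1602 and 1685 in KO replicates 1, 2 and 3. That order differed from the order of *Ddx3y*, and the part of sex or donor was not tested.

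Promoter windows were matched for only 16 of these 23 genes, fewer than 80%, so no share of promoters with sterol regulatory letters is given for this list. A single promoter is shown because its gene, *Hmgcs1*, encodes the synthase that makes the substrate of the rate-limiting step and was among the genes lower in KO cells (log2 fold change -0.38), and because its 250 bases held the letters TCACNCCAC. Among the genes called lower, only 11 of 18 in the sterol list and 6 of 9 in the fatty acid list had a window to search, and no other of these held the letters. These letters occur on either strand in 1.24% of all windows. The sequence (GRCm38.p6, chr13:119690101-119690350, plus strand) has them in capitals.
Hmgcs1: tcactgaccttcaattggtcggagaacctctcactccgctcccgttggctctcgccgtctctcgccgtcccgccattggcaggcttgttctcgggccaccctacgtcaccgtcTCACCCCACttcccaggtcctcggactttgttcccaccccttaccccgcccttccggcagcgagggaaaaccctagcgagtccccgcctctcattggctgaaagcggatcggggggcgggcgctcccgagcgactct

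Genes of LXR receptors and cholesterol export were divided, with 5 of 18 higher, 5 lower and a median of 0.13. The number higher was 2 without WT replicate 2, WT replicate 3 or KO replicate 3 and 8 without KO replicate 2 or with the length trend removed, and it was 3 in the fit of 18 libraries and with KO replicate 2 alone. The number lower was 3 without KO replicate 3. *Abca1*, the exporter of cholesterol to apolipoprotein A-I, held 677, 699 and 727 normalized counts in the WT and 263, 396 and 323 in the KO libraries. *Nr1h3*, which encodes LXR alpha, held 114, 120 and 122 in the WT and 203, 231 and 176 in the KO libraries. The genotypes were apart in opposite directions, with -1.12 for *Abca1* (standard error 0.12, limma adjusted p = 7.55e-06) and 0.76 for *Nr1h3* (standard error 0.14, adjusted p = 0.00159). *Pltp*, a phospholipid transfer gene, was lower by -0.82, and *Cyp27a1*, which makes an oxysterol, and *Smpdl3a*, an LXR-responsive gene of a phosphodiesterase, were higher by 0.39 and 0.37. *Cyp27a1* lost its call without WT replicate 2 (0.32), WT replicate 3 (0.39) or KO replicate 3 (0.40), and *Pltp* in the fit of 18 libraries.

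Of 12 phospholipase A2 genes tested, 3 were higher and 1, *Pla2g4a*, was lower, with a median of 0.05. *Pla2g7*, which inactivates platelet-activating factor, held 3219, 3442 and 3473 normalized counts in the WT and 4860, 4557 and 4604 in the KO libraries. It was higher in each KO library (0.47, standard error 0.05, limma adjusted p = 9.19e-06), as was *Pla2g12a* (0.34, adjusted p = 0.00420), which was not called with KO replicate 2 alone (0.25). Of 17 genes of eicosanoid synthesis 4 were higher and 1 lower, with a median of 0.07, and none was lower without WT replicate 1 or KO replicate 3. *Alox5ap*, which presents arachidonic acid to 5-lipoxygenase, held 23117, 24007 and 23799 in the WT and 29132, 26666 and 27952 in the KO libraries. *Ptges*, a prostaglandin E synthase gene, held 93.7, 78.4 and 87.5 in the WT and 145, 132 and 144 in the KO libraries. Both separated the genotypes, at 0.24 and 0.69 on the log2 scale, while *Tbxas1*, the thromboxane synthase gene, was lower by -0.22. Of 8 eicosanoid receptor genes tested 1 was higher, *Ptger2*, and none lower, with a median of 0.08. This share of 12.5% was below the 13.7% of all genes. *Ptger2* (0.30, limma adjusted p = 0.0392) was at 0.23 to 0.35 with a library left out. Its call was lost without WT replicate 1 or 2 or any KO library, where no receptor gene was higher, and 1 receptor gene was higher without WT replicate 3.

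Of 28 genes of phospholipid remodelling and endocannabinoid enzymes 9 were higher and 2 lower, with a median of 0.12, and *Lpcat3*, which places polyunsaturated chains into phospholipids, held 2677, 2612 and 2696 normalized counts in the WT and 2275, 2348 and 2183 in the KO libraries. That gene was lower in every KO library (-0.23, limma adjusted p = 0.00689), a call that was lost without KO replicate 3 (-0.20). The number higher in this list was 3 without WT replicate 2 and 5 without WT replicate 3 or KO replicate 3, and the number lower ran from 0 without KO replicate 3 to 4 without KO replicate 2. PPAR targets and fatty acid oxidation had 2 of 30 higher and 1 lower, with a median of 0.03, a share below that of all genes, and 3 were lower without KO replicate 2 and 1 higher without WT replicate 2 or 3 or KO replicate 3. *Fabp4*, a fatty acid carrier gene, held 221, 229 and 221 in the WT and 492, 413 and 511 in the KO libraries (1.07, adjusted p = 3.31e-06). Lipid droplet, lipolysis and uptake genes had 4 of 22 higher and 1 lower, with a median of 0.06, but 2 higher without WT replicate 2 or KO replicate 3 and 3 lower without KO replicate 2. Over the 6 libraries 22.7% of this list was called, against 13.7% of all genes. *Lpl*, the lipoprotein lipase gene and the most abundant of that list, held 33077, 34496 and 33287 in the WT and 24158, 26914 and 25574 in the KO libraries. It was lower in all 3 KO libraries (-0.40, adjusted p = 1.49e-05). Sphingolipid genes had 4 of 25 higher and 1 lower, with a median of 0.08, but without WT replicate 2 none was called, 1 was higher without WT replicate 3, and 2 were higher and none lower without WT replicate 1, KO replicate 1 or KO replicate 3.

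**Figure D3:**
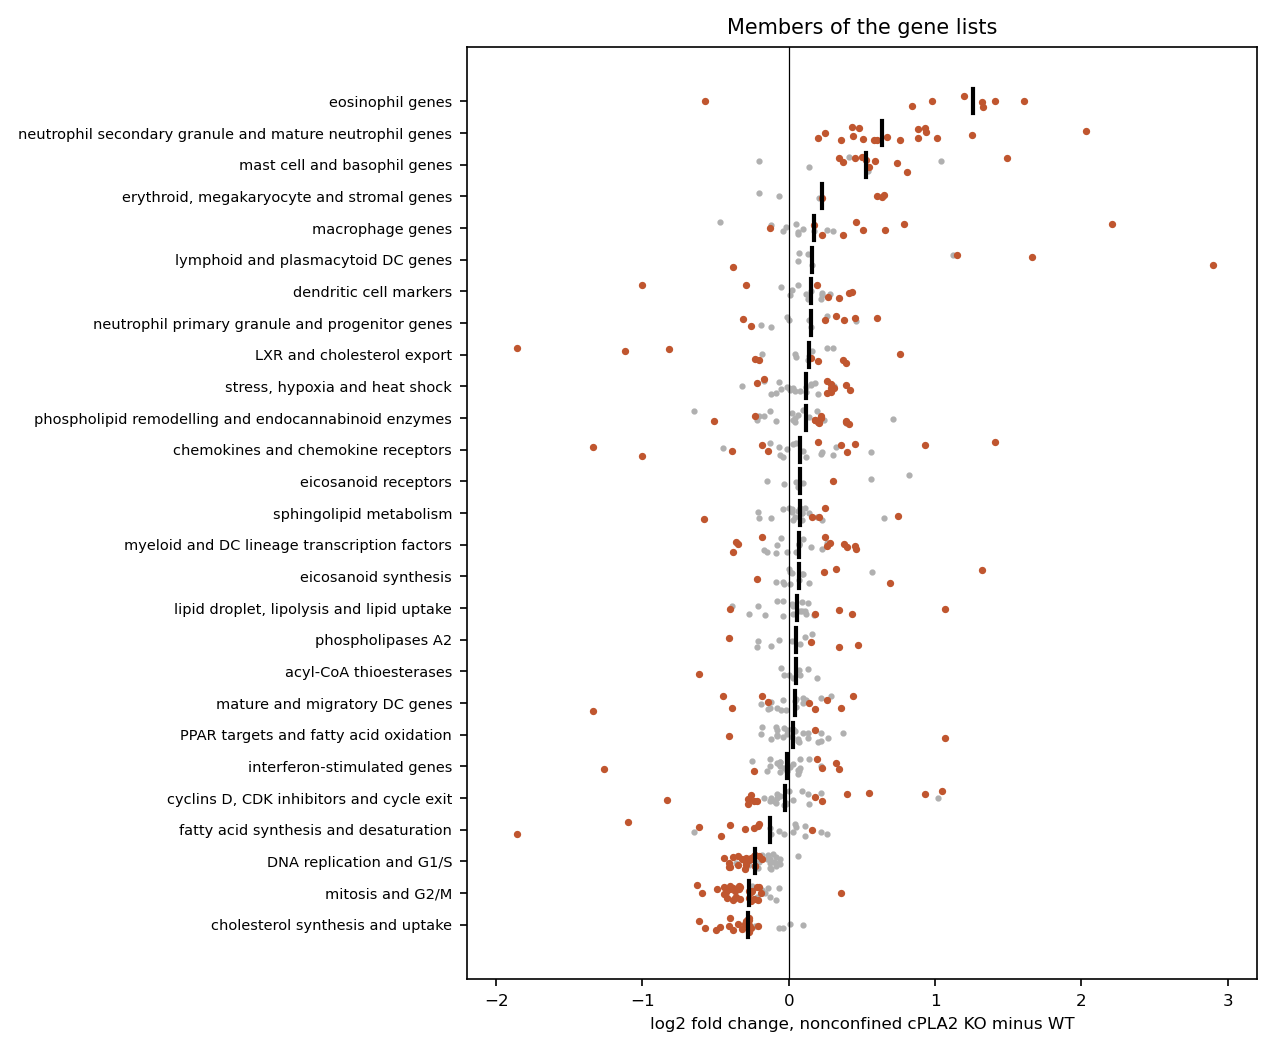
Log2 fold change (KO minus WT, nonconfined) of each tested member of the 27 gene lists, coloured where called, with a black bar at the list's median. Eosinophil genes have a median of 1.26 and cholesterol genes of -0.28, and *Acot1*, whose test is not used, lies beyond the axis at 7.62. Bars and colours of the thioesterase list and of the lymphoid and plasmacytoid DC list are not used in the text, because *Acot1* and *Siglech* passed the filter through the KO libraries.

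*Acot1* (GSMG0011093, chromosome 12, 84056263 to 84065147), which encodes a cytosolic enzyme that splits long-chain acyl-CoA, held 3.81, 0 and 0.983 normalized counts in the WT and 478, 377 and 400 in the KO libraries. The fitted log2 fold change was 7.62, a value that depends on the pseudocount because the WT values are near 0. The gene passed the filter only through the KO libraries, so its test is not used. *Acot2*, its mitochondrial and nearly identical neighbour in the same gene cluster, held 1107, 1041 and 1053 in the WT and 692, 693 and 707 in the KO libraries (-0.61, limma adjusted p = 1.07e-05). The sum of both, a quantity chosen after the values were seen, was 1111, 1041 and 1054 in the WT and 1170, 1070 and 1107 in the KO libraries. The sums overlapped between genotypes. How reads were divided between the copies was not tested, and neither gene's change in nonconfined cells is taken on its own here. In confined cells *Acot2* held 618, 496 and 528 in the WT and 578, 495 and 544 in the KO libraries and the sum was 625, 502 and 533 against 1166, 1121 and 1133. There *Acot2* overlapped between genotypes and the sum did not. Because *Acot1* passed the filter in this way, no count or median is given for the list of thioesterases.

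*Gm3255*, a gene model of unknown function on chromosome 17, was listed at 0 in all 3 WT libraries and held 193, 131 and 226 normalized counts in the KO libraries. It too passed the filter only through the KO libraries. The confined cells did not show this contrast, with a log2 fold change of 0.32, and the libraries labelled LPS held 167, 199 and 172 in WT and 116, 0 and 232 in KO replicates 1, 2 and 3. *Lrmda*, a melanocyte differentiation gene, held 29.7, 34.1 and 16.7 in the WT and 378, 318 and 332 in the KO libraries. *Lrmda* was also higher in confined KO cells, at 4.10 on the log2 scale against 3.68 here (limma adjusted p = 9.10e-09). Among the libraries labelled LPS, *Lrmda* held 401, 24.7 and 243 in WT and 22.3, 381 and 241 in KO replicates 1, 2 and 3, high where *Ddx3y* was present and low where it was near 0. *Jchain* and *Acot1* showed the same order there.

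Other large differences lay outside the lists. *Klrb1b*, a lectin-like receptor gene, held 549, 507 and 515 normalized counts in the WT and 1482, 1289 and 1396 in the KO libraries, and *Sema4f*, a semaphorin gene, held 51.8, 56.3 and 64.9 and then 126, 168 and 171. Both were higher in each KO library, by 1.40 on the log2 scale. *Thy1*, a surface glycoprotein gene best known from T cells, held 1795, 1742 and 1780 in the WT and 840, 870 and 821 in the KO libraries. *Eps8l1*, a gene related to a regulator of actin, held 233, 243 and 207 in the WT and 69.0, 98.7 and 95.1 in the KO libraries. *Tmem119*, a membrane protein gene used as a marker of microglia, held 186, 171 and 183 in the WT and 87.0, 80.1 and 93.2 in the KO libraries. These 3 genes were lower in all KO libraries, by -1.07, -1.38 and -1.04 (limma adjusted p = 4.04e-09, 1.80e-05 and 1.25e-04), and in the fit of 18 libraries *Tmem119* was not called.

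Of 29 interferon-stimulated genes tested, 4 were higher and 2 lower in nonconfined cells, with a median of -0.01. Those called were 20.7% of the list, against 13.7% of all genes, and the number lower was near the overall share of 6.31%. The number higher was 1 without WT replicate 3 or KO replicate 3 and 2 without WT replicate 2, and the number lower was 5 without KO replicate 2. *Ifi44*, an interferon-induced gene, held 399, 370 and 372 normalized counts in the WT and 176, 158 and 143 in the KO libraries (-1.26, limma adjusted p = 1.30e-06). *Ifit1*, which binds viral RNA, held 1781, 1749 and 1843 in the WT and 2464, 2111 and 2133 in the KO libraries (0.32, adjusted p = 0.00314). The genotypes were apart for both, in opposite directions. Stress, hypoxia and heat shock genes had 8 of 29 higher and 2 lower, with a median of 0.12, against 5 and 1 without WT replicate 3. In the fit of 18 libraries none was higher and 2 were lower, and with KO replicate 2 alone 4 were higher. *Egln3*, an oxygen-sensing hydroxylase gene, was higher by 0.42, and the chaperone genes *Hsp90aa1* and *Hspa8* were lower by -0.22 and -0.17. The call of *Egln3* was lost with KO replicate 2 alone (0.30) and that of *Hspa8* without WT replicate 3 (-0.17).

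Around *Pla2g4a*, 32 genes within 5 Mb were tested and 5 were called, with *Pla2g4a* itself counted in both numbers. This share of 15.6% was near the 13.7% of all autosomal genes. None of the 5 changed by over 1 on the log2 scale. GSMG0050110, at -1.70, varied too much to be called (adjusted p = 0.263). *Rgl1*, an effector of Ras-like GTPases, held 2177, 2212 and 2213 normalized counts in the WT and 2883, 3323 and 3062 in the KO libraries (0.49, limma adjusted p = 2.35e-05). *Npl*, a sialic acid lyase gene, was also higher (0.58), and *Tpr*, a nuclear pore gene, and *Dhx9*, an RNA helicase gene, were lower (-0.39 and -0.37). *Tpr* held 2537, 2902 and 2802 in the WT and 1686, 2626 and 2084 in the KO libraries, with overlap between genotypes. Among the fits with a library left out, the call of *Tpr* was kept only without KO replicate 2. With KO replicate 2 alone *Tpr* was at -0.06 and *Dhx9* at -0.22, neither of them called. *Ptgs2*, the cyclooxygenase-2 gene beside *Pla2g4a*, was singled out after its value was seen and was not called (-0.03, adjusted p = 0.947).

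The confined libraries, 3 for each genotype and all different from the nonconfined ones, give the same contrast after confinement. Of 15800 autosomal genes tested there 7194 were called (45.5%), and the interaction of genotype with confinement was called for 5132 of 16371 (31.3%). Of the 2072 genes called in nonconfined cells, 986 were called in the same direction in confined cells, which is 47.6% of the nonconfined and 13.7% of the confined calls, and 419 in the opposite direction. The donors of both pairs of groups may be the same. Eosinophil genes had a median of 1.34 in confined cells against 1.26, and neutrophil secondary granule genes of 0.99 against 0.63, with the interaction called for 4 of 8 and 13 of 18. *Epx* had a log2 fold change of 1.27 in confined and 1.33 in nonconfined cells, and its interaction was not called (limma adjusted p = 0.540). Cholesterol genes had a median of 0.19 in confined cells, with 13 higher and 3 lower, and the interaction was called for 19 of the 23. For *Lss* it was 1.02 (adjusted p = 1.30e-08). G1/S genes had a median of 0.17 and G2/M genes of 0.08 there, with the interaction called for 28 of 40 and 31 of 39. These list medians are read with the scaling in mind, because the same total per library moved the median of all confined differences from 0.04 to 0.19 and that of the interactions from 0.05 to 0.24. Interferon-stimulated genes had a median of -2.67 in confined cells, with all 29 lower and all 29 interactions called.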

How the data were processed

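Per the submitters' notes and the study's methods, strand-specific poly(A) libraries were mapped with STAR 2.7.5a to mm39 (GRCm39), counted with featureCounts 1.5.0 on Mouse FAST DB genes and normalized with DESeq2 in R 3.5.3, and the authors deposited the resulting signal per gene. Multiplied by a factor per library, 100% of the deposited signal values were whole reads (tolerance 1e-06). Those reads gave the depth and the alternatives with edgeR 4.0.16 and DESeq2 1.42.0.

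The test was limma 3.58.1 in R 4.3.3 (eBayes with trend, Benjamini-Hochberg) on 6 nonconfined libraries, on 6 confined libraries beside them, and on all 12 for the interaction. Named genes were *Pla2g4a*, up to 10 increases and 10 decreases past 1 on the log2 scale whose genotypes do not overlap and whose mean is 100 or more (8 decreases qualified), up to 4 called members per list and direction, each list's most abundant member, genes at 50 or more in 1 genotype and under 5 in the other, dendritic cell markers, called genes within 5 Mb of *Pla2g4a*, and checks of sex, except for genes that are not reported here. Members and the 27 lists (634 genes) were chosen with earlier results of these data known. The pipeline was tested on simulated data. Alternatives were 2 pseudocounts, 2 filters, 2 scalings, fits of 12 or 18 libraries, a replicate term, other tools, a fold of 1.5, each library left out, and 2 settings added after the data were seen.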

Additional observations from a re-analysis of the deposited data

Results flagged for a closer look

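The difference between genotypes was itself different in confined and nonconfined cells, by limma's interaction of genotype with confinement, for 5132 autosomal genes. Among the genes named for their large nonconfined change, the interaction (confined minus nonconfined log2 fold change) was -0.86 for *Marco*, 0.56 for *Mmp9*, 0.36 for *Ear1*, -0.58 for *Klrb1b*, 0.47 for *Ear2 // Ear3 // Ear12*, -0.81 for *Ccr4*, -2.65 for *Ifi44*, -2.64 for *Abca1*, -0.70 for *Thy1* and 1.26 for *Scd1*. In these the difference had the same direction in both. It turned for *Ccr3* (interaction -3.06, from 1.41 in nonconfined to -1.65 in confined cells), *Sema4f* (-3.45, from 1.40 to -2.05) and *Scd2* (1.29, from -1.10 to 0.19).

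*Ddx3y*, a Y-linked gene at no more than 3.05 normalized counts in the nonconfined WT libraries, held 1271 and 662 in the libraries labelled LPS WT replicates 1 and 3, which the comparison does not use.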

How the results depend on the processing

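Of 178 named genes tested, 155 were called, and none of these changed direction under any alternative. Of the 155, 109 lost the call under some alternative, 97 under the rule of a 1.5-fold change, 36 in the fit of 18 libraries, 50 without some library, 2 with the length trend removed and 49 with KO replicate 2 alone. Read-based tools gave similar counts, with 1128 higher and 937 lower genes from edgeR and 1110 and 970 from DESeq2. The same total per library moved the share of calls that were higher from 53.8% to 42.5% in nonconfined cells, from 48.4% to 69.8% in confined cells (6092 higher, 2637 lower) and from 45.7% to 73.2% for the interaction (5248 and 1924).

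With each library left out in turn, higher genes ranged from 656 to 1657, lower genes from 474 to 1726, and those past 1 on the log2 scale from 87 to 140 higher and from 25 to 124 lower. KO replicate 2 alone, a setting added after the data were seen, gave 622 higher, 58 of them by over 1, and 499 lower genes. A fold of 1.5 with an unadjusted p of 0.05 gave 531 higher and 356 lower, and left *Pla2g4a* (-0.41) short of that fold. Among genes past 1 on the log2 scale, the filter of 100 normalized counts left 50 higher and 12 lower, no filter gave 94 lower, and removing the length trend, also added later, gave 93 higher and 23 lower, because fewer or more genes of low counts or without a length were tested.

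The replicate numbers are not stated to pair libraries, and the residuals of same-numbered libraries correlated at 0.04, 0.199 and 0.243, so the numbers were not used. Every library correlated best with its own number, which is a hint from the data and not from the design. With a replicate block, 1170 genes were higher and 1127 lower, 162 and 71 of them by over 1, and 0 named genes lost their call.

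Genes that were not called and whose value changed sign were *Srebf2* (-0.03 with the same total per library, -0.02 to 0.03 with a library left out), *Clec10a* (-0.02 with the same total and with the length trend removed, -0.03 to 0.06 with a library left out, -0.09 with KO replicate 2 alone), *Itgam* (-0.02 with the same total, -0.04 to 0.07 with a library left out), *Ciita* (-0.02 to 0.15) and *Clec9a* (-0.05 to 0.44) with a library left out, *Bst2* (-0.02 with the length trend removed, -0.09 with KO replicate 2 alone), *Pafah1b2* (0.01 with the length trend removed), and *Spi1* (-0.02) and *Npc2* (-0.05) with KO replicate 2 alone. The cause was not tested. At this depth counting error limits only genes of few counts, and the spread of 3 libraries limits the rest.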
